A study of Mus musculus with 2 samples.

Results

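The TRAV genes are the variable genes of the T cell receptor α-chain. Their use was measured in hepatic CD8αα and CD8αβ T cells from dnTGFβRII (TG) mice on the C57BL/6 background, labelled as 10 weeks old. Their transgene, expressed from the mouse CD4 promoter, encodes a human TGF-β receptor II that cannot signal, so that CD4+ and CD8+ T cells do not respond normally to TGF-β. The strain serves as a model of primary biliary cholangitis. The libraries of both cell types come from TG mice, and no library of wild-type mice was analysed here. Sorted cells gave 1 bulk RNA library for each cell type, and how many mice were pooled for a library is not given in the sources used here. Every test therefore compares 2 libraries and not 2 conditions. A clonotype here is 1 listed CDR3 nucleotide sequence together with its best V and J gene. Clonotypes were kept where the best V hit was a TRAV gene and the best J hit a TRAJ gene. This kept 222 of 940 clonotypes of the CD8αα library and 452 of 1568 of the CD8αβ library.

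In the thymus, 1 TRAV gene is joined to 1 TRAJ gene, and the bases at the joint form most of the third complementarity-determining region (CDR3), the loop that lies over the peptide. The first and second loops are encoded by the TRAV gene itself. A rearranged α-chain can be replaced by joining a TRAV gene further from the J cluster to a TRAJ gene further downstream. In C57BL/6 mice the middle of the V cluster is repeated, with a plain, a D and an N version. Many TRAV genes therefore have near-identical copies, marked D and N in their names. T cells of 1 clone share their rearranged α-chain sequences. A large clonotype therefore marks RNA from an expanded clone or a high level of RNA per cell, which cannot be told apart in bulk RNA. Nor does bulk RNA show whether different clonotypes came from 1 clone.

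The kept clonotypes comprised 1352 of 6133 CD8αα reads (22.0%) and 892 of 3215 CD8αβ reads (27.7%). Reads without molecular identifiers are not independent molecules, so that intervals and floors cover counting error only. Immunoglobulin genes held 21.8% of the CD8αα and 13.7% of the CD8αβ reads, and TRGV genes joined to TRGJ genes, of the γ-chain, held 7.04% and 0.560%. Clonotypes with a TRDJ gene, of the δ-chain, held 0.293% and 0.218%. From which cells these reads came, and the part of other cells in the TRAV results, was not tested. All TRAV-TRAJ clonotypes were in frame and without a stop codon. The α-chain constant gene was named for 178 of 222 and 319 of 452 clonotypes, and no constant gene was named for the others.

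The CDR3 sequences of the 5 largest clonotypes of each library are shown first, since the largest read shares below rest on several of them. Capitals mark the bases listed between the V part and the J part, and a sequence without capitals has no such base. The listed V part can run past the germline gene, as in TRAV13D-2 with 15 bases, of which 13 matched germline. A sequence without capitals is thus not always a direct join of germline V and J bases. In CD8αα T cells the 5 largest were:
TRAV13D-2 with TRAJ13: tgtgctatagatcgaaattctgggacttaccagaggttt
TRAV16D-DV11 with TRAJ49: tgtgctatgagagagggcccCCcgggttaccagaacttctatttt
TRAV4D-3 with TRAJ21: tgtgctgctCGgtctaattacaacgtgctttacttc
TRAV10N with TRAJ24: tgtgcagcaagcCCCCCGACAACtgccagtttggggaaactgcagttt
TRAV4-4-DV10 with TRAJ34: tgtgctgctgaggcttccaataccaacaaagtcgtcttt
In CD8αβ T cells these were:
TRAV19 with TRAJ57: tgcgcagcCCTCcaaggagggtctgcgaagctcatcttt
TRAV6D-7 with TRAJ26: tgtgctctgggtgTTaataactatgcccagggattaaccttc
TRAV12D-2 with TRAJ11: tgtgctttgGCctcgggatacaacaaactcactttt
TRAV12D-3 with TRAJ52: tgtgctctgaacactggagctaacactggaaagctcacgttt
TRAV6-6 with TRAJ22: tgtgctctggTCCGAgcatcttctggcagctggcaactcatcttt

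None of these 10 CDR3 sequences was listed in the other library. The largest clonotype of CD8αα T cells, TRAV13D-2 with TRAJ13, had 250 reads, or 18.5% of TRAV-TRAJ reads (95% Wilson interval 16.5% to 20.6%). The next 4 had 104, 57, 50 and 39 reads, and the 5 together held 37.0% of reads. The largest clonotype of CD8αβ T cells, TRAV19 with TRAJ57, had 100 reads, or 11.2% (9.30% to 13.4%). The next 4 had 20, 20, 15 and 13 reads, and the 5 together held 18.8%. In CD8αβ T cells a single clonotype stood above the rest, whereas in CD8αα T cells the sizes fell off more slowly.

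**Figure D1:**
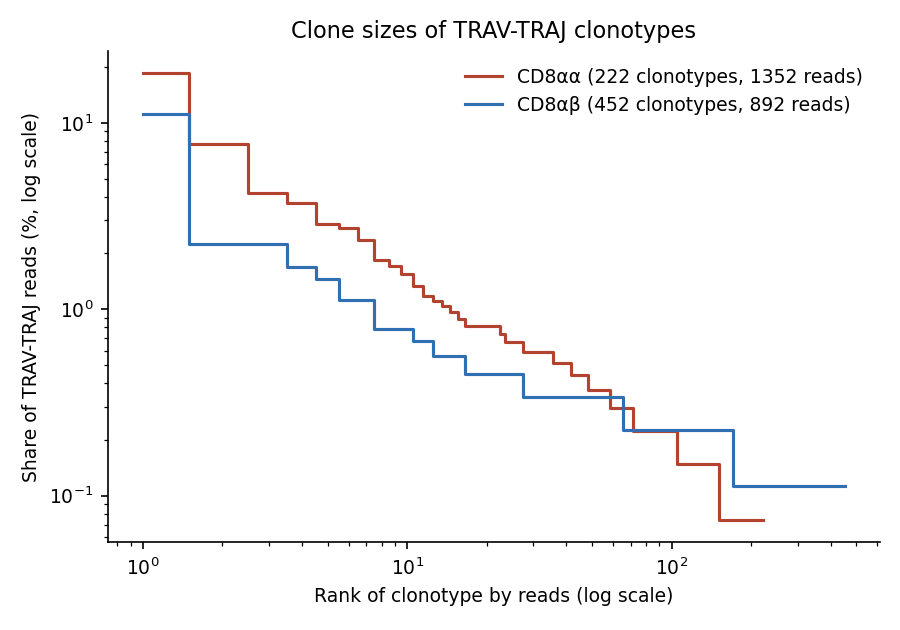
Share of TRAV-TRAJ reads (%, log scale) of each clonotype against its rank by reads (log scale), with 1 line for each library. The CD8αα line starts at 18.5% and ends at 222 clonotypes, and the CD8αβ line starts at 11.2% and ends at 452 clonotypes.

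The clonotypes of CD8αα T cells were larger. A single read supported 71 of 222 clonotypes in CD8αα T cells, or 32.0% (26.2% to 38.4%), against 281 of 452 in CD8αβ T cells, or 62.2% (57.6% to 66.5%). The difference of -30.2 percentage points (95% Newcombe interval -37.4 to -22.3) gave p = 1.65e-13 by a two-sided Fisher's exact test. The median size was 2 reads in CD8αα and 1 read in CD8αβ T cells, and the mean was 6.09 and 1.97 reads per clonotype. The share of clonotypes with 1 read depends on depth and was not compared at equal depth. Clonotypes of at least 10 reads numbered 23 in CD8αα T cells, made up 59.3% of the reads and were spread over 20 TRAV genes of 11 subfamilies. The CD8αβ library had 7 such clonotypes, with 21.1% of its reads. The cut of 10 reads is a lower share of reads in the deeper CD8αα library. Entries that repeat a CDR3 under a second TRAV gene, described below, were counted separately. The 13 largest clonotypes made up at least 50% of reads in CD8αα T cells, against 89 in CD8αβ T cells. At 892 reads, the depth of the shallower library, 190.9 clonotypes would be expected in CD8αα T cells, against the 452 seen in CD8αβ T cells. The β-chain, as a comparison, had 31.8% and 57.4% of its clonotypes with 1 read.

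The V cluster lies on chromosome 14 (GRCm38, 52427928 to 53977678), where GENCODE M21 annotates 128 TRAV genes, 108 of them functional and 20 pseudogenes. The lists named 83 of them, of 19 subfamilies, and all 83 matched the annotation by name. CD8αα T cells had 66 genes and CD8αβ T cells 77, with 60 in both. The 6 genes listed only in CD8αα T cells held 86 reads there, and the 17 listed only in CD8αβ T cells held 83 reads. With CD8αβ T cells reduced to 222 clonotypes, 63.3 genes would be expected, against the 66 seen in CD8αα T cells. Of the functional genes, 27 were never the best hit, and 18 of these were tied as best hit in some clonotype. The pseudogenes TRAV4D-2 and TRAV8-2 were named in 1 CD8αα and 2 CD8αβ clonotypes; both were chosen after their values were seen.

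By clonotypes, no TRAV gene differed between the libraries past the threshold. Each V gene was tested against the others of its chain by a two-sided Fisher's exact test, with Benjamini-Hochberg adjustment over the 251 V genes of all chains. None of the 83 TRAV genes passed an adjusted p of 0.05, where the background over all V genes was 0%, and 4 had an unadjusted p under 0.05. These 4, chosen after their values were seen, were TRAV6-1 with 5 clonotypes against 0, TRAV10 with 11 against 8, TRAV12D-2 with 1 against 15 and TRAV12D-3 with 2 against 19, CD8αα first. None of the 19 subfamilies passed either, where the background was 1.32% of 76 V subfamilies, and 2 had an unadjusted p under 0.05. The subfamily TRAV12 held 26 clonotypes or 11.7% (8.12% to 16.6%) in CD8αα and 89 or 19.7% (16.3% to 23.6%) in CD8αβ T cells, with an adjusted p = 0.229 by Fisher's exact test. The subfamily TRAV10 held 13 or 5.86% (3.45% to 9.76%) and 8 or 1.77% (0.900% to 3.45%), also with an adjusted p = 0.229 by Fisher's exact test. With these numbers of clonotypes the intervals were wide, and the one for TRAV12 ran from -13.3 to -2.02 percentage points.

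**Figure D2:**
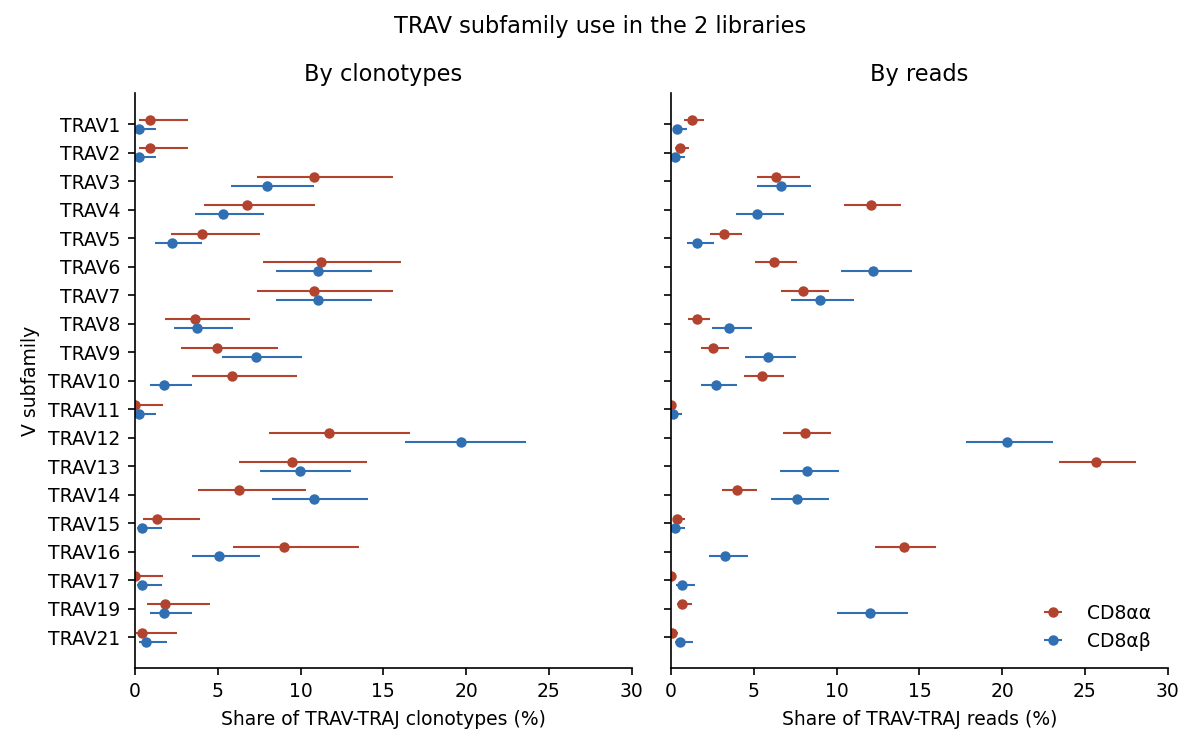
Share (%) of TRAV-TRAJ clonotypes (left) and reads (right) for each of the 19 TRAV subfamilies in the CD8αα and CD8αβ libraries. Points are shares and lines are 95% Wilson intervals, which cover counting error only. By clonotypes no subfamily passed the adjusted test, and by reads TRAV13 held 25.7% in CD8αα and 8.18% in CD8αβ T cells.

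By reads, many TRAV genes differed, several of them through 1 clonotype. By the same test on reads, 22 of 83 TRAV genes passed, which was 26.5% against a background of 23.5% over all V genes, so that TRAV genes passed about as often as other V genes. Of these, 8 were higher in CD8αα T cells (background 7.57%) and 14 were lower (background 15.9%). Among subfamilies 13 of 19 passed (background 48.7%), 6 of them higher (background 19.7%) and 7 lower in CD8αα T cells (background 28.9%). Reads of 1 clonotype are not independent, so that these p-values describe the 2 lists of reads. Each called gene was therefore compared again without its own largest clonotype in each library. Of the 22 genes, 14 kept their direction with an unadjusted p under 0.05, 7 kept the direction without passing, and 1 turned. Of the 13 subfamilies, 8 kept their direction with an unadjusted p under 0.05 and 5 kept only the direction.

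TRAV13D-2 (ENSMUSG00000094758.2, chromosome 14, 52942764 to 52943289, plus strand, 2 exons) had the largest difference in reads. It held 267 reads or 19.7% (17.7% to 22.0%) in CD8αα and 9 reads or 1.01% (0.532% to 1.91%) in CD8αβ T cells, a share 19.6-fold higher, with an adjusted p = 3.83e-49 by Fisher's exact test. It had 5 clonotypes in CD8αα and 7 in CD8αβ T cells. Without its largest clonotype it held 1.54% and 0.787% of reads, with p = 0.150 by Fisher's exact test.

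TRAV16D-DV11 (ENSMUSG00000076796.1, 53047287 to 53047821, plus strand), whose name marks that it can also serve in δ-chains, held 137 reads or 10.1% in CD8αα and 21 reads or 2.35% in CD8αβ T cells. Its adjusted p was 2.84e-12 by Fisher's exact test. Without its largest clonotype the shares were 2.64% and 2.02%, with p = 0.391 by Fisher's exact test. For the whole subfamily TRAV16, the shares without the largest clonotype were 6.89% and 2.92% with p = 4.47e-05 by Fisher's exact test, and a second entry with the same CDR3 as the largest was still in it, as described below.

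TRAV4D-3 (ENSMUSG00000093939.1, 52899969 to 52900470, plus strand) held 85 reads or 6.29% in CD8αα and 3 reads or 0.336% in CD8αβ T cells, with an adjusted p = 3.08e-14 by Fisher's exact test. It had 4 clonotypes against 2, and the 4 of CD8αα T cells were tied with TRAV4N-3. Without its largest clonotype of 57 reads, 2.16% and 0.112% were left, with p = 8.64e-06 by Fisher's exact test. Of the CD8αα reads left, 23 were again in 1 clonotype, and the other 2 clonotypes had 3 and 2 reads. TRAV10N (ENSMUSG00000095646.1, 53122114 to 53122610, plus strand) held 51 reads in CD8αα T cells, 50 of them in 1 clonotype, and 0 of the 892 CD8αβ reads, which allows a share of up to 0.336%. Its share was at least 11.2-fold higher in CD8αα T cells, set against a floor of 3 reads, with an adjusted p = 1.05e-10 by Fisher's exact test. TRAV4-4-DV10 (ENSMUSG00000096096.3, 53683647 to 53684177, plus strand) held 43 and 20 reads, or 3.18% and 2.24%, with an adjusted p = 0.408 by Fisher's exact test.

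TRAV19 (ENSMUSG00000076862.5, 53845234 to 53845827, plus strand), the only gene of its subfamily and one of the V genes closest to the J cluster, was the main gene higher in CD8αβ T cells. It held 9 reads or 0.666% in CD8αα and 107 reads or 12% (10.0% to 14.3%) in CD8αβ T cells, with an adjusted p = 1.88e-32 by Fisher's exact test. Its clonotypes were 4 of 222 and 8 of 452, or 1.80% and 1.77%. Without its largest clonotype it held 0.445% and 0.884% of reads, with p = 0.251 by Fisher's exact test.

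Several TRAV12 and TRAV6 genes also had a higher read share in CD8αβ T cells. The subfamily TRAV12 held 109 reads or 8.06% in CD8αα and 181 reads or 20.3% in CD8αβ T cells, with an adjusted p = 1.13e-15 by Fisher's exact test. Without tied clonotypes its difference fell from -12.2 to -1.70 percentage points with an adjusted p = 0.435 by Fisher's exact test, and its call was lost. However, all 15 TRAV12D-2 and 19 TRAV12D-3 clonotypes of CD8αβ T cells were tied with other TRAV12 genes. This setting thus drops reads whose subfamily is known, and cannot show whether the subfamily call is sound. TRAV12D-2 (ENSMUSG00000096129.2, 52915799 to 52916426) had 4 reads in 1 CD8αα clonotype and 46 reads in 15 CD8αβ clonotypes (adjusted p = 2.26e-13), and kept its direction without its largest clonotype (unadjusted p = 2.23e-11), both by Fisher's exact test. These 15 clonotypes were tied with TRAV12N-2. With ties shared equally the difference went from -4.86 to -2.43 percentage points (adjusted p = 1.12e-06, Fisher's exact test). TRAV12D-3 (ENSMUSG00000094607.2, 52929789 to 52930282) had 27 reads in CD8αα T cells, 25 of them in 1 clonotype, and 47 reads in 19 CD8αβ clonotypes (adjusted p = 0.000325, Fisher's exact test). These 19 clonotypes were tied with TRAV12N-3. TRAV6-6 (ENSMUSG00000095862.1, 53516929 to 53517366) had 12 reads in 7 clonotypes and 48 reads in 24 clonotypes (adjusted p = 3.12e-09, Fisher's exact test). Of these, 6 of 7 and 16 of 24 clonotypes were tied with TRAV6D-6 alone, whose last 280 bases are the same. Its largest CD8αβ clonotype, of 13 reads, was tied among 5 genes, with TRAV6D-7 among them. TRAV6D-7 (ENSMUSG00000095756.2, 53007612 to 53008098) had 0 of 1352 reads in CD8αα T cells, which allows up to 0.222%, and 31 reads in 6 CD8αβ clonotypes, 20 of them in 1 clonotype, at least 15.7-fold more by share (adjusted p = 7.7e-12, Fisher's exact test). TRAV12-2 (ENSMUSG00000096656.6, 53616315 to 53616914) was the gene with most clonotypes in both libraries, 12 and 28, and its read shares of 3.77% and 5.04% gave an adjusted p = 0.355 by Fisher's exact test. TRAV12-1 (ENSMUSG00000096825.2, 53538191 to 53538738) had 26 reads in 10 clonotypes and 37 reads in 24 clonotypes, with an adjusted p = 0.0131 by Fisher's exact test, and this call was lost when ties were left out or shared, and also with at least 2 reads (adjusted p = 0.256).

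**Figure D3:**
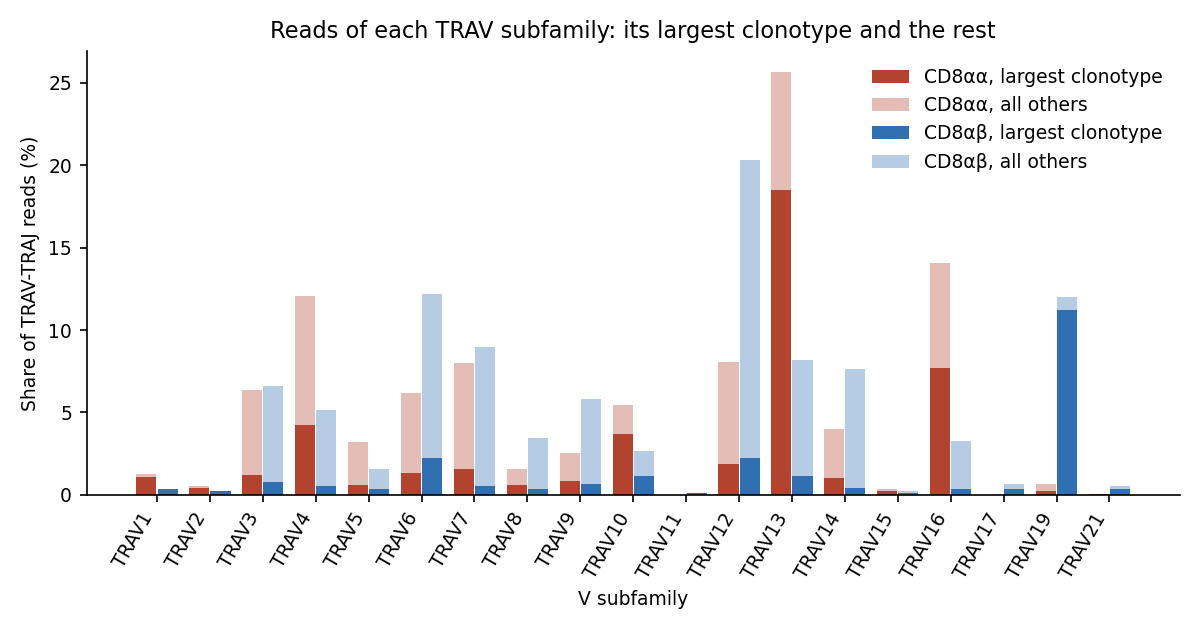
Share of TRAV-TRAJ reads (%) of each subfamily in the CD8αα and CD8αβ libraries, with the largest clonotype of the subfamily in dark and all its others in pale. In TRAV13 of CD8αα T cells the largest clonotype made up 72.0% of the reads, in TRAV19 of CD8αβ T cells 93.5%, and in TRAV12 22.9% and 11%.

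TRAV14, the subfamily known as Vα2 and often followed with an antibody, held 54 CD8αα reads (3.99%, 14 clonotypes) and 68 CD8αβ reads (7.62%, 49 clonotypes). By reads the adjusted p was 0.00123, and by clonotypes it was 0.765, both by Fisher's exact test. With at least 2 reads the call by reads was lost, with a difference of -1.01 percentage points and an adjusted p = 0.401 by Fisher's exact test. The TRAV14 genes had 0 to 3 clonotypes each in CD8αα and 1 to 10 in CD8αβ T cells. TRAV11 with TRAJ18, the α-chain of invariant NKT cells, and TRAV1 with TRAJ33, the α-chain of MAIT cells, were searched for by gene pair. Neither pair was listed, which allows up to 0.222% of reads in CD8αα and 0.336% in CD8αβ T cells. TRAV11 itself had 0 and 1 clonotype, the latter with TRAJ32. TRAV1 was joined to TRAJ31 and TRAJ27 in the CD8αα library (2 clonotypes, 17 reads) and to TRAJ23 in the CD8αβ library (1 clonotype, 3 reads).

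The D and N copies took a larger share of reads in CD8αα T cells, and their share of clonotypes did not differ past the threshold. D or N copies were named in 92 of 222 CD8αα clonotypes, or 41.4% (35.2% to 48.01%), and 181 of 452 CD8αβ clonotypes, or 40.0% (35.6% to 44.6%), with p = 0.739 by Fisher's exact test and a difference between -6.38 and 9.31 percentage points. By reads they held 61.2% (58.5% to 63.7%) and 38.9% (35.8% to 42.1%), with p = 5.38e-25 by Fisher's exact test. With the largest clonotype of both libraries left out, the read shares were 52.4% and 43.8%, with p = 0.000276 by Fisher's exact test. The 577 CD8αα reads left on D or N copies still held other large clonotypes. These were of TRAV16D-DV11 with 104 reads, TRAV4D-3 with 57, TRAV10N with 50 and TRAV16N with 32. Whether a difference remains without them was not tested.

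Which copy was named was often not settled by the sequence. More than 1 V gene shared the best score in 81 CD8αα clonotypes, or 36.5% (30.4% to 43.0%), and in 210 CD8αβ clonotypes, or 46.5% (41.9% to 51.1%). By reads the tied shares were 43.6% and 43.7%. Up to 5 genes were tied, and 1 tie, in CD8αβ T cells, crossed subfamilies. Among clonotypes on D copies, 41 of 60 and 113 of 143 were tied, whereas those on N copies were tied in 0 of 32 and 1 of 38. At equal score within a subfamily, the lists place the plain name before D and D before N. The 1 tied N copy stood first in the tie that crossed subfamilies. In the annotation, 19 sets of TRAV genes had the same last 280 bases, 18 of them a D and an N copy. The ends of such a pair, that of the largest CD8αα clonotype, are shown over their last 30 bases (chromosome 14, plus strand, 52943260 to 52943289 and 53254288 to 53254317):
TRAV13D-2: actcaggcacttatctctgtgctatagatc
TRAV13N-2: actcaggcacttatctctgtgctatagatc
The reads of this clonotype therefore belong to TRAV13D-2 or TRAV13N-2, and its CDR3 holds all 13 germline bases from the first CDR3 codon on.

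Some CD8αα sequences were listed more than once. In 10 cases the same CDR3 bases and TRAJ gene stood under 2 TRAV genes of a subfamily, 20 entries with 314 reads or 23.2% of reads, and in CD8αβ T cells there were 0 cases. The CDR3 of the TRAV16D-DV11 clonotype with 104 reads was also listed under TRAV16N with TRAJ49 and 32 reads. The germline genes differ at 3 of the last 280 bases, of which 1 lies in the last 60 and is in capitals (chromosome 14, plus strand, 53047762 to 53047821 and 53351562 to 53351621):
TRAV16D-DV11: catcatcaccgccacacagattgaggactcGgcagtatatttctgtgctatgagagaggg
TRAV16N: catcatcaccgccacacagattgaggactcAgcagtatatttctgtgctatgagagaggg
Counted as 1, this clonotype had 136 reads or 10.1% (8.57% to 11.8%). With all 10 repeated CDR3 sequences counted once, the library had 212 clonotypes. The TRAV4-4-DV10 clonotype with 39 reads was likewise listed under TRAV4-3 with 10 reads, although these genes differ at 30 of 280 bases. Whether such entries are 1 clone read with errors or separate rearrangements was not tested.

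The lists of the 2 libraries shared few α-chains. A single read supported 32.0% of CD8αα and 62.2% of CD8αβ clonotypes, so that clonotypes present in the cells may be unlisted. Low overlap therefore does not show that the 2 cell types differ in their α-chains. Only 1 CDR3 was the same in its bases, with TRAV14 genes and TRAJ23, 6 reads in the CD8αα and 1 read in the CD8αβ library, or 0.450% and 0.221% of clonotypes:
TRAV14 with TRAJ23: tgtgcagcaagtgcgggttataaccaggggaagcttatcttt
In translation 5 CDR3 sequences were shared, 2.25% and 1.11% of clonotypes. One of them was the TRAV10N clonotype of 50 reads, which met an entry of 1 read under TRAV7-4 in CD8αβ T cells, shown with the differing base in capitals:
CD8αα, TRAV10N with TRAJ24: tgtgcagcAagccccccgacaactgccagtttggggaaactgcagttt
CD8αβ, TRAV7-4 with TRAJ24: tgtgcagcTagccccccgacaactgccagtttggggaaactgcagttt
The 11 bases between V and J were the same in both. Whether the entry came from the same clone was not tested.

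Mean CDR3 length was 13.5 residues (SD 1.42 over 222 clonotypes) in CD8αα and 13.6 (SD 1.39 over 452) in CD8αβ T cells, a difference far below the spread among clonotypes, and weighted by reads it was 13.5 and 13.6. The most frequent length was 14 residues, in 31.5% (25.8% to 37.9%) and 34.96% (30.7% to 39.5%) of clonotypes. By reads, 13 residues led in CD8αα T cells with 38.5%, which includes the TRAV13D-2 clonotype, and in CD8αβ T cells 14 residues held 30.6% and 13 residues 28.9%. The bases between V and J averaged 2.48 (SD 2.31) and 2.29 (SD 2.20), and 22.5% and 26.3% of clonotypes had none (p = 0.2996 by Fisher's exact test). By reads the order was the other way, with 36.1% and 23.7% of reads without such a base (p = 3.94e-10 by Fisher's exact test), and the CD8αα share includes the TRAV13D-2 clonotype.

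**Figure D4:**
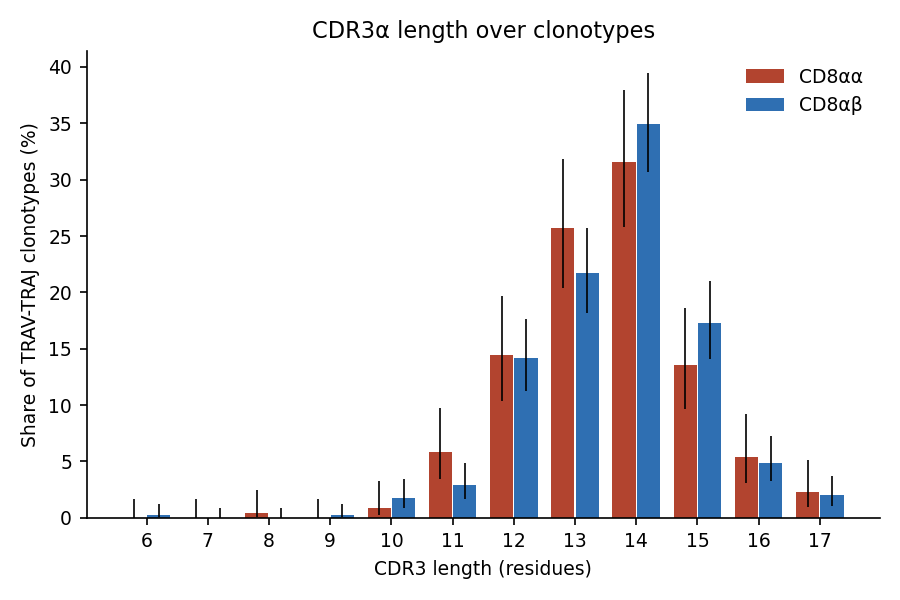
Share of TRAV-TRAJ clonotypes (%) at each CDR3 length (residues) in the CD8αα and CD8αβ libraries. Bars are shares and lines are 95% Wilson intervals, which cover counting error only, and the highest bars are at 14 residues with 31.5% and 34.96%.

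Length varied with the subfamily. Among the 12 subfamilies with at least 8 clonotypes in each library, TRAV16 had the highest mean length in both, 14.6 residues (SD 1.47 over 20) and 14.9 (SD 1.39 over 23). TRAV16 genes bring a median of 17 germline bases into the CDR3, against 13 for TRAV13 and TRAV4 and 14 for TRAV12. TRAV13 was among the shorter ones in both libraries, with 13.0 (SD 1.67 over 21) and 13.0 (SD 1.24 over 45), and TRAV8 had 12.9 (SD 1.64 over 8) and 12.8 (SD 2.01 over 17). The largest gap between the libraries, not tested, was in TRAV10 with 13.1 (SD 1.498 over 13) and 14.1 (SD 0.835 over 8), and TRAV5 went the other way with 14.2 (SD 1.20 over 9) and 13.5 (SD 1.08 over 10).

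The position of the TRAV gene went with that of the TRAJ gene in both libraries. TRAV17 to TRAV23, the genes nearest to the J cluster, were named in 5 of 222 and 13 of 452 clonotypes, or 2.25% and 2.88%, with p = 0.801 by Fisher's exact test. By reads they held 0.740% and 13.2% (p = 9.32e-38 by Fisher's exact test), of which the TRAV19 clonotype made up 100 of 118 CD8αβ reads. Their median TRAJ number was 49 and 56, where high numbers lie nearest to the V cluster, and that of the other clonotypes was 27 and 30. TRAJ48 or higher was used by 4 of 5 and 11 of 13 of them, and by 14.3% and 17.5% of the others. Over all clonotypes, Spearman's rho between the order of the TRAV gene and the TRAJ number was 0.34 over 222 and 0.40 over 452 clonotypes, and without TRAV17 to TRAV23 it was 0.32 and 0.36. The points share a library, and the order of tied D and N copies is uncertain.

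**Figure D5:**
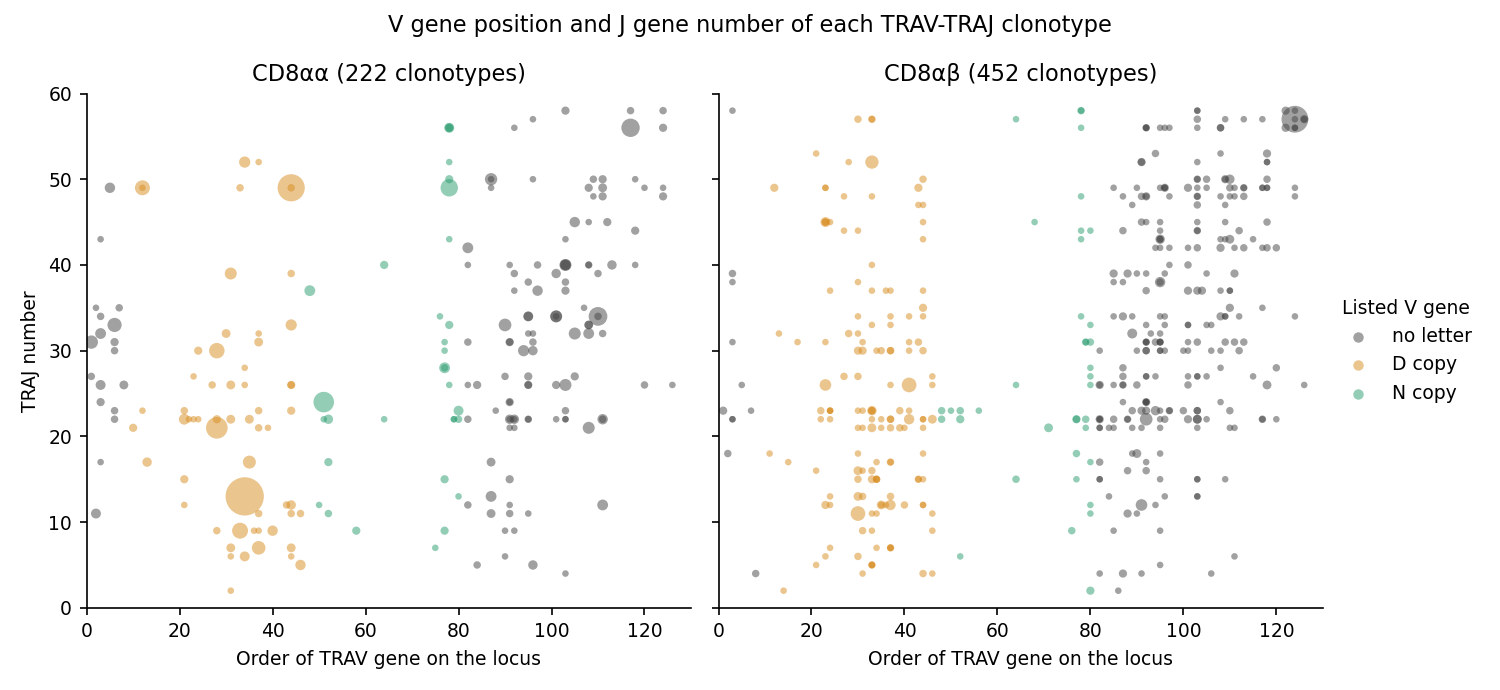
TRAJ number against the order of the TRAV gene on the locus for each TRAV-TRAJ clonotype of the CD8αα (222) and CD8αβ (452) libraries, with the colour for the copy named and a symbol area that grows with the reads. High TRAJ numbers lie nearest to the V cluster, and clonotypes of the last V genes sit mostly at the top.

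The evenness of TRAV use depended on what was counted. The effective number of genes, which is the inverse of the summed squared shares, was 38.03 in CD8αα and 39.6 in CD8αβ T cells by clonotypes, and 15.1 and 26.8 by reads.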

How the data were processed

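RNA of sorted hepatic CD8αα and CD8αβ T cells was sequenced, and the authors assembled clonotypes with MiXCR. They deposited for each clonotype a read count that was not normalized and a fraction of all listed reads; the fraction was not used. The submitters' processing notes name mm10, with no role given; the V reference, read filters and command are not given in the sources used here. Positions and germline sequences came from GENCODE M21 (GRCm38, the same build).

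Python 3.11.15 with scipy 1.17.1, pandas 2.3.3 and statsmodels 0.14.6 was used. The first listed V and J hits set the gene, and the number before the dash the subfamily. Shares have 95% Wilson intervals, differences Newcombe intervals, and the floor was 3 reads. V genes and subfamilies of IGH, IGK, IGL, TRA, TRB and TRG were tested within their chain. The test of V genes by clonotypes was checked on simulated data, and the tests by reads and of subfamilies were not. The simulated lists had fewer genes, of 1 chain, and a larger planted difference than any TRAV gene showed by clonotypes. This check therefore does not show which differences the test could miss here. Genes were named from 5% of clonotypes or reads in either library, from the 5 largest clonotypes of each, as the gene with most clonotypes, or as TRAV14, TRAV11 and TRAV1. The TRAV genes and these lists were chosen with earlier results of these data known. The alternatives were at least 2 reads, no largest clonotype, no shared clonotype, merged or tied entries treated otherwise, and a minimum of 5 clonotypes.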

Additional observations from a re-analysis of the deposited data

Results flagged for a closer look

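Some entries outside the TRAV-TRAJ rule held more reads than the floor of 3. TRAV genes joined to a TRDJ gene, as in a δ-chain, had 7 reads (4 clonotypes) in the CD8αα library and 5 reads (3 clonotypes) in the CD8αβ library. TRDV genes joined to a TRAJ gene had 8 reads (5 clonotypes) in the CD8αβ library, all 5 with the α-chain constant gene, and 0 reads in the CD8αα library. None of these enters the values of the report.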

How the results depend on the processing

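No gene or subfamily passed by clonotypes under any of the alternatives run. Leaving out tied clonotypes removed the TRAV13D-2 clonotype of 250 reads by construction. It lowered the TRAV genes called by reads from 22 to 14 and the subfamilies from 13 to 6, turned the gap between the largest clonotypes' read shares from 7.28 to -6.27 percentage points, the CD8αα to CD8αβ ratio of effective gene numbers by reads from 0.563 to 1.13, and the difference in read-weighted CDR3 length from -0.06 to 0.29 residues. It also turned TRAV12-1 by reads to 0.574 percentage points (adjusted p = 0.763, Fisher's exact test) and TRAV6 to 0.227 (adjusted p = 0.999, Fisher's exact test), and the calls by reads of the subfamilies TRAV1, TRAV4, TRAV5, TRAV8, TRAV12 and TRAV13 were lost. Only 0 CD8αα ties and 1 CD8αβ tie crossed subfamilies, so for subfamilies this setting drops clonotypes whose subfamily is known. With at least 2 reads, the gap between the largest clonotypes' read shares was 3.15 percentage points, and the calls by reads of TRAV1, TRAV10, TRAV14 and TRAV12-1 were lost. Without the largest clonotype of each library, TRAV13 by reads turned to -0.415 percentage points (adjusted p = 0.929, Fisher's exact test), and the calls of TRAV13D-2 (0.787) and TRAV19 (1.00) were lost by adjusted p. Leaving out each gene's own largest clonotype, chosen after seeing the data like the counting of a repeated CDR3 as 1, left 14 genes and 8 subfamilies by unadjusted p. Of 285 gene and subfamily comparisons by reads under the alternatives, 267 kept their side of the threshold. They cover named genes and subfamilies, also those never called, so this count does not measure how stable the calls are. Some of those not called still changed direction, such as TRAV14-1 from -0.119 to 0.375 percentage points with at least 2 reads. No paired analysis was possible because each cell type has 1 library. With 892 and 1352 reads, a gene not listed may still hold up to 0.336% and 0.222% of reads.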
